A study of Rattus norvegicus with 232 samples.

Results

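The glutathione S-transferases examined here were 10 rat genes, namely Gstm1, Gstm2, Gstm3, Gstm4, Gstm5, Gsta4, Gstp1, Gstt1, Gstk1 and Gsto1. They are a list of family members given by symbol, drawn up with earlier results of these data known. Of the 10, 9 had a row under their own symbol among the 20859 RefSeq genes of the deposited brain table. Gstm3 had none and was read from the row Gstm3l, which RefSeq gives as a synonym of Gstm3; that this row holds Gstm3 is not certain, so that each Gstm3 value below is that of the row Gstm3l.

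RNA of whole brain from inbred rats of the Hybrid Rat Diversity Panel was sequenced after depletion of ribosomal RNA. The table held 197 animals of 74 strains, and each strain is an inbred line whose animals are close to identical in genotype. The HXB/BXH recombinant inbred family descends from a cross of SHR/OlaIpcv, a spontaneously hypertensive rat, with BN-Lx/Cub, and gave 88 animals of 30 strains. The FXLE/LEXF recombinant inbred family descends from a cross of F344/Stm with LE/Stm and gave 43 animals of 19 strains. The classic inbred strains, which include these 4 progenitors, the stroke-prone hypertensive SHRSP/A3NCrl and the normotensive WKY/NCrl, gave 66 animals of 25 strains. BN-Lx/Cub is a Brown Norway congenic strain that carries the luxate (Lx) allele. The sample titles name untreated rats. Of the 232 samples of the series, 193 also carry a separate label for the absence of treatment, and 148 carry a label for male sex. The methods of the study give young adult males for its HXB/BXH rats and for the classic strains bought from vendors, and a single side of each brain was sequenced. SHR/OlaIpcv was represented by 2 animals, labelled replicates 1 and 4, with 12 and 6 libraries, and SHRSP/A3NCrl by replicates 2 and 3. LE/Stm was represented by 1 animal, in which the mean of 8 liver genes was 16.87 against a median of 8.033 over animals.

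Glutathione S-transferases join the tripeptide glutathione to electrophilic compounds, so that these become more soluble and can be exported from the cell. The cytosolic enzymes are dimers and are named by class, of which the mu (Gstm), alpha (Gsta), pi (Gstp), theta (Gstt) and omega (Gsto) classes are represented here, whereas Gstk1 is the kappa enzyme of mitochondria and peroxisomes. Gsta4 has a high activity toward 4-hydroxynonenal, a product of lipid peroxidation, and Gsto1 acts as a thioltransferase and dehydroascorbate reductase. Gstm1 was studied as a candidate gene for hypertension in the kidney of the stroke-prone rat. In the brain, members of the family are known from astrocytes, ependyma, oligodendrocytes and the vessel wall. Many genes of glutathione metabolism are targets of the transcription factor Nrf2 (Nfe2l2), which binds antioxidant response elements.

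The start sites of the 5 mu genes lay in a cluster on chromosome 2, in the order Gstm5, Gstm3, Gstm2, Gstm1 and Gstm4, and within it Gstm5 was alone in being on the plus strand. Promoter sequences from RefSeq on the GRCr8 assembly, from 250 bases before to 50 bases after the start site, were matched for 9 of the 10 members. The core of the antioxidant response element, TGACNNNGC, was searched on both strands and was held by 2 of the 9 promoters, those of Gstm5 and Gstp1, against 12.1% of the 33469 promoters of this length. A match is a description of these letters and not a binding site, and the match in Gstp1 also holds TGACTCA, the motif of AP-1. Below, the promoters of Gstm4 and Gsta4 are shown because these were the members with the highest share of variance between strains, and those of Gstm5 and Gstp1 because they hold the motif, whose letters are in capitals. Each sequence is that of the reference rat and is given 5′ to 3′ on the strand of the gene.
Gstm4, chr2:198373334-198373633, minus strand: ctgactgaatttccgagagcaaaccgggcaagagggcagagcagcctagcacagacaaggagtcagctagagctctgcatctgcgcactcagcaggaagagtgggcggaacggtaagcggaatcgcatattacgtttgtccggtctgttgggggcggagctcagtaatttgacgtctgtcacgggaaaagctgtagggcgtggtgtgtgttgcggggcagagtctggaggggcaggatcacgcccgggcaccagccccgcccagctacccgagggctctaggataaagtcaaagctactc
Gsta4, chr8:87947015-87947314, plus strand: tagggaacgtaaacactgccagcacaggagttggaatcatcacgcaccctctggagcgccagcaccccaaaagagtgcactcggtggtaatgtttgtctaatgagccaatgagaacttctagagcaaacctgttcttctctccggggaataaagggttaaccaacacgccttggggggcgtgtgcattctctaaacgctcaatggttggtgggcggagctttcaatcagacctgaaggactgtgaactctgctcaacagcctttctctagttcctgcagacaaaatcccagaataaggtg
Gstm5, chr2:198219519-198219818, plus strand: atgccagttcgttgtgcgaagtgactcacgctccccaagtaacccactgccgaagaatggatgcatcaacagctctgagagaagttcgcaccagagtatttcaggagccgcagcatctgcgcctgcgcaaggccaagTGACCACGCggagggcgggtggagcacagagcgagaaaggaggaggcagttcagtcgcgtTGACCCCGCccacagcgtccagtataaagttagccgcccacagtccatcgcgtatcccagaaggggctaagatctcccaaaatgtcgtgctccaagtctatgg
Gstp1, chr1:210769656-210769955, minus strand: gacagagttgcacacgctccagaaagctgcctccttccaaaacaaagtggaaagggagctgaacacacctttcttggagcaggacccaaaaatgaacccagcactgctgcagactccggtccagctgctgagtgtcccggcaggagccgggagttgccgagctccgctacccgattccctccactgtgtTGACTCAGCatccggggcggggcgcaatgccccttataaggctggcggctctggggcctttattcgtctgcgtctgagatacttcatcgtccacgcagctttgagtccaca
The matches began 113 and 53 bases before the start site of Gstm5 and 61 bases before that of Gstp1, each on the strand of its gene. The promoters of Gstm1, Gstm2, Gstm3, Gstm4, Gsta4, Gstk1 and Gsto1 held no match in this window.

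Values are log2 expression as deposited, and folds read a difference of 1 as a doubling. The study describes a regularized log for an earlier deposited table, and this transform shrinks differences of low genes. Values are not scaled to the length of a gene, and levels were therefore compared between strains for 1 gene and never between genes. Near-identical mu genes can share reads, so that the division of reads among Gstm1 to Gstm5 is uncertain. The depth of the libraries is unknown, because no counts were used, and library medians ran from 8.18 to 8.42. Gstm3 had a mean of 0.96, near the floor of the table, whereas the means of the other members ran from 6.68 for Gstt1 to 12.1 for Gstm1. Markers of neurons, astrocytes, oligodendrocytes, microglia, endothelium, choroid plexus, ependyma and meninges were all present in the table. In 4 animals, of BN-Lx/Cub, SR/JrHsd, MWF/Hsd and HXB20/Ipcv, the values lay in the median over genes more than 0.2 from the median animal, and 8 animals had liver genes more than 2 above the median animal. In bulk tissue, fewer cells of a type and less RNA per cell cannot be told apart.

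The first comparison asked which members differ among strains. Of the 10 members, 5 differed, namely Gsta4, Gstm4, Gsto1, Gstm2 and Gstm1, in a moderated F-test (limma) over the 69 strains with 2 or more animals, 192 animals in all, at a false discovery rate (FDR) of 5% over all genes. In this test 36.8% of all genes passed, so that 5 of 10 members is not far from the background. The broad-sense R2, which is the fraction of a gene's variance found between strains and not within them, has a median of 0.434 over all genes and would be 0.356 without any strain effect. R2 was 0.726 for Gsta4 (adjusted p = 3.22e-13) and 0.724 for Gstm4 (adjusted p = 5.87e-13), which placed them at percentiles 97.1 and 97 of all genes. Gsto1 followed with 0.588 (adjusted p = 1.07e-04), Gstm2 with 0.488 (adjusted p = 0.0125) and Gstm1 with 0.478 (adjusted p = 0.0261). Gstp1 missed the threshold with 0.458 (adjusted p = 0.0518), and it passed with batch as a covariate (0.558, adjusted p = 0.00133). R2 with a covariate, here and below, is taken of the variance left after the covariate was removed. It is therefore another quantity than R2 without one. Gstm5 (0.422), Gstt1 (0.355), Gstk1 (0.329) and Gstm3 (0.313) did not pass, with adjusted p from 0.146 to 0.84. The calls of Gstm1, Gstm2 and Gsto1 did not hold in every subset of the animals. Each was lost when the animals with replicate number 1 or 2 were left out (adjusted p from 0.102 to 0.543). Over all genes the calls fell from 7677 to 3275 and 3116 there, so that such a loss is not particular to these members. Without replicate number 3, 5 members had a strain effect.

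The same test was then applied within each panel, where it asks whether the strain means of a member differ. No genotypes were used, so that segregation itself was not tested. In HXB/BXH, Gsta4 (R2 0.763, adjusted p = 1.09e-08) and Gstm4 (0.574, adjusted p = 0.00384) passed, 2 of 10 members, where 19.1% of all genes did. In FXLE/LEXF no member passed in limma, where 5.00% of all genes did, although 3 members, Gsto1 (R2 0.726, p = 0.00987), Gstm1 (0.658, p = 0.0104) and Gstm4 (0.601, p = 0.0243), had an unadjusted p under 0.05 across the 40 animals of 16 strains, as did 22.8% of all genes. Among the 64 animals of 23 classic inbred strains, 4 of 10 members passed, where 18.6% of all genes did. These were Gstm4 (R2 0.878, adjusted p = 6.56e-11), Gsta4 (0.730, adjusted p = 3.03e-05), Gstm2 (0.670, adjusted p = 6.94e-04) and Gstm1 (0.577, adjusted p = 0.0306). The call of Gstm4 in HXB/BXH was lost without any of the replicate numbers 1, 2 and 3 (adjusted p 0.242, 0.0583 and 0.0966), and that of Gsta4 was kept in each case. Over all genes the calls in HXB/BXH fell from 3992 to 1732, 1902 and 1710. In the classic inbred strains Gstm1 lost its call without any of these numbers (adjusted p 0.104, 0.634 and 0.0673) and Gstm2 without 1 or 2 (0.15 and 0.183), whereas Gstm4 and Gsta4 kept theirs. Over all genes the calls in these strains fell from 3878 to 2031, 1268 and 2223. Whether R2 differs between panels was not tested.

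**Figure D1:**
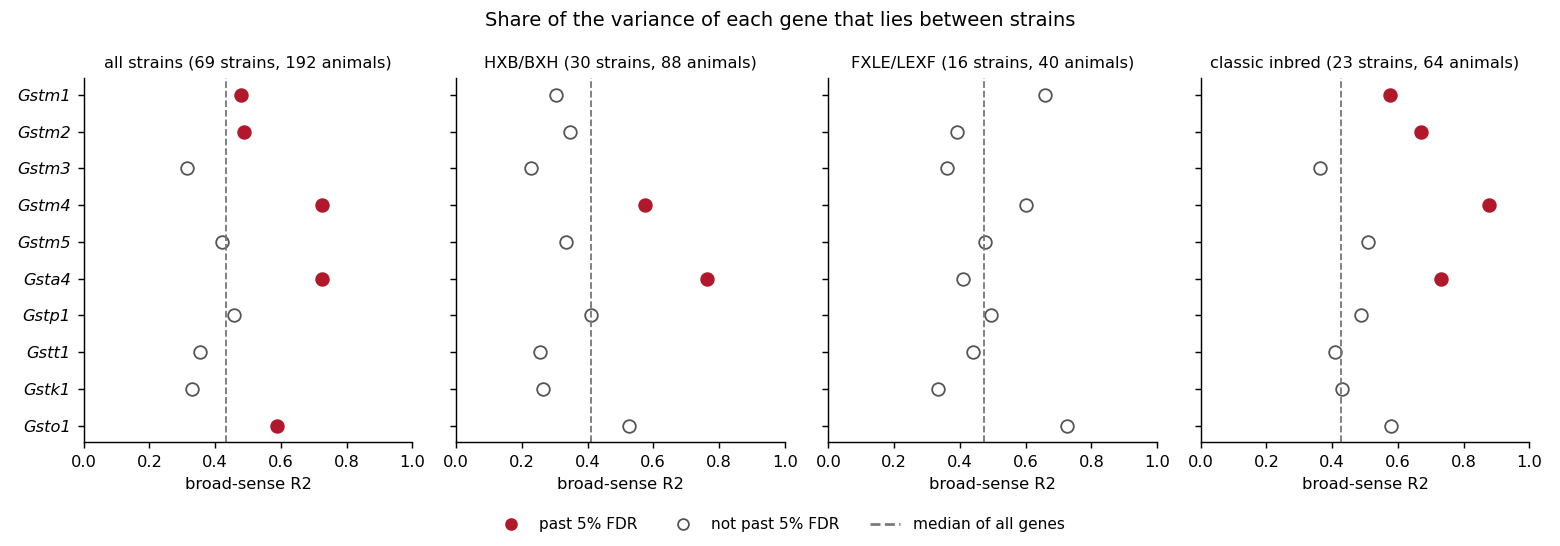
Broad-sense R2 of each member (horizontal axis, from 0 to 1, no unit) in all strains and in each of the 3 panels; filled points passed an FDR of 5% and the dashed line is the median of all genes. Gsta4 and Gstm4 have the highest R2 of the members in all strains (0.726 and 0.724) and in the classic inbred strains (0.730 and 0.878). They also do in HXB/BXH (0.763 and 0.574), where Gstm4 lies near Gsto1 (0.525, not filled). No point is filled in FXLE/LEXF.

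Gstm4, a cytosolic mu-class enzyme, had the widest span of strain means among the members, from 8.434 in HXB20/Ipcv to 9.69 in BDIX/NemOdaMcwi, a 2.39-fold range. Both BDIX/NemOdaMcwi animals were high (9.579 and 9.802), and 1 animal of another strain, of PVG/Seac, lay between them at 9.662. The other PVG/Seac animals had 9.353 and 9.357, and the 3 GK/FarMcwi animals had 9.277, 9.309 and 9.524. Each strain was also compared with the mean of all others, for every gene, with p-values adjusted over all genes and strains together. Batch was not a covariate in any version of this comparison. Each strain was sequenced in few batches, so that differences of strain and of batch cannot be fully told apart here. In this comparison 1.30% of all pairs of gene and strain passed, and 25.7% of all genes passed in at least 1 strain. Gstm4 passed in 6 strains. It was higher in BDIX/NemOdaMcwi by 0.805 ± 0.108 (SE, limma, adjusted p = 2.56e-08), a 1.75-fold difference, in PVG/Seac by 0.569 ± 0.0883 (1.48-fold), in GK/FarMcwi by 0.479 (1.39-fold), in HXB3/Ipcv by 0.397 (1.32-fold) and in SR/JrHsd by 0.361 (1.28-fold). It was lower in HXB20/Ipcv, with a difference of -0.47 (0.722-fold), where the 3 animals had 8.147, 8.459 and 8.695. The calls in HXB20/Ipcv and SR/JrHsd were lost without the animals that stood apart (-0.327, adjusted p = 0.108, and 0.298, adjusted p = 0.166). Those in BDIX/NemOdaMcwi, PVG/Seac, GK/FarMcwi and HXB3/Ipcv were kept.

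The strain means of Gstm4 fell into 2 clusters when normal mixtures of 1, 2 or 3 clusters were fitted (mclust). A lower cluster of 63 strains had a mean of 8.852 and an upper cluster of 6 strains a mean of 9.377, where 8.99% of all genes had more than 1 cluster. The upper strains were BDIX/NemOdaMcwi, PVG/Seac, GK/FarMcwi, SR/JrHsd, HXB3/Ipcv and HXB2/Ipcv. Among the classic inbred strains alone, 19 strains lay around 8.807 and 4 around 9.443, where 13.4% of all genes had more than 1 cluster. Within HXB/BXH a single cluster was fitted, and HXB2/Ipcv (9.231 and 9.26) and HXB3/Ipcv (9.223, 9.237 and 9.405) lay above both progenitors, SHR/OlaIpcv (8.74 and 8.755) and BN-Lx/Cub (8.797, 8.889 and 8.891). In all, 16 of the 30 HXB/BXH strains had a mean above both progenitor means, 7 between them and 7 below both. For counts of strains against progenitors, here and below, the share over all genes is not given. Ordered by mean, 2 of the 68 pairs of neighbouring strains were farther apart than the within-strain SD of 0.152, and the widest gap was that of 0.233 between PVG/Seac and BDIX/NemOdaMcwi.

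**Figure D2:**
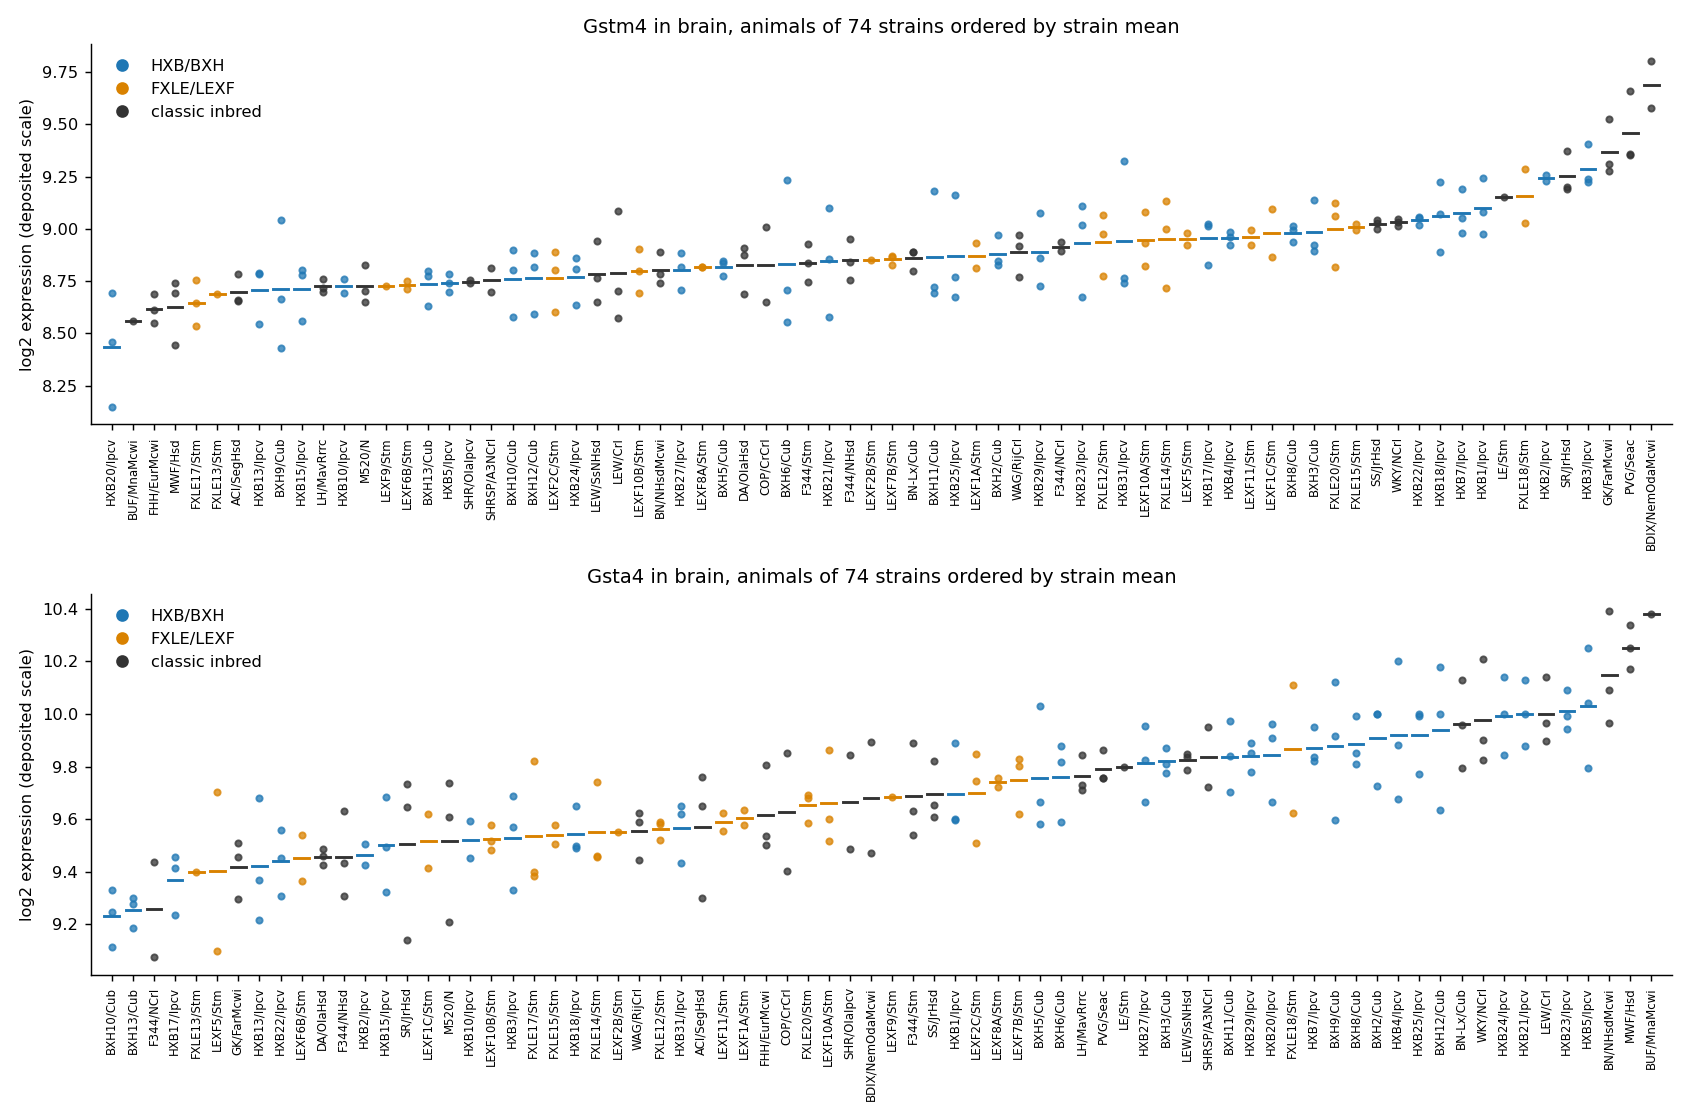
Log2 expression of Gstm4 (top) and Gsta4 (bottom) in each animal (points) of 74 strains on the horizontal axis, ordered by the strain mean (bar) and coloured by panel. For Gstm4 the BDIX/NemOdaMcwi animals (9.579 and 9.802) end a tail of high strains, whereas the Gsta4 means climb evenly from 9.23 in BXH10/Cub to 10.25 in MWF/Hsd, with the single BUF/MnaMcwi animal at 10.38.

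Gsta4, the alpha-class enzyme for lipid aldehydes, had strain means from 9.23 in BXH10/Cub to 10.25 in MWF/Hsd, a 2.03-fold range. This range leaves out strains with 1 animal, of which BUF/MnaMcwi (10.38) lay above it. The MWF/Hsd animals had 10.17, 10.25 and 10.34, and the BN/NHsdMcwi animals had 9.967, 10.09 and 10.39. At the low end, the BXH10/Cub animals had 9.113, 9.248 and 9.329, the BXH13/Cub animals 9.187, 9.275 and 9.301, and the F344/NCrl animals 9.074 and 9.438. No animal of the 3 low strains reached an animal of the 2 high strains. These strains were picked as the ends of the order, so that this is a description and not a test. Against the mean of all other strains, Gsta4 was higher in MWF/Hsd by 0.573 ± 0.0982 (SE, limma, adjusted p = 2.95e-05), a 1.49-fold difference, in BN/NHsdMcwi by 0.468 (1.38-fold) and in HXB5/Ipcv by 0.346 (1.27-fold). It was lower in BXH10/Cub (-0.465, 0.724-fold), BXH13/Cub (-0.44, 0.737-fold) and F344/NCrl (-0.438, 0.738-fold). No 2 neighbouring strains in the order of means were farther apart than the within-strain SD of 0.17. On the rn6 assembly used for an earlier deposited table, the gene lies at chr8:85497557-85518879 on the plus strand, with 7 exons in the annotated transcript.

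In the HXB/BXH family the strain means of Gsta4 fell into 2 clusters, 11 strains around 9.443 and 19 around 9.881, where 11.7% of all genes had more than 1 cluster in this family and 3.36% under a stricter rule that the Gsta4 clusters also met. The means of the lower strains ran from 9.23 to 9.567 and those of the upper strains from 9.695 to 10.03. Animals of the clusters overlapped, since the lower strains ran from 9.113 to 9.688 (median 9.452, 31 animals) and the upper strains from 9.58 to 10.25 (median 9.877, 57 animals). Of these, 24 lower animals lay below every upper animal. BN-Lx/Cub lay with the upper strains, with 9.794, 9.959 and 10.13. Of the 30 strains, 11 had a mean below both progenitor means (9.665 for SHR/OlaIpcv and 9.962 for BN-Lx/Cub), 15 between them and 4 above both, and the 11 were the strains of the lower cluster. The 2 SHR/OlaIpcv animals differed, with 9.486 in replicate 1 and 9.843 in replicate 4. The 12 libraries of replicate 1 ran from 9.316 to 9.78 and the 6 libraries of replicate 4 from 9.597 to 10.00, and in the 3 batches that held both animals replicate 4 was higher by 0.0966, 0.142 and 0.378. The difference of SHR/OlaIpcv from BN-Lx/Cub was -0.297 ± 0.154 (SE) and did not pass (limma, adjusted p = 0.276). In the v5 table, an earlier deposited version with SHR/OlaIpcv values of 9.406 and 9.803, in replicates numbered 1 and 2, it was -0.633 and passed (adjusted p = 0.00226), and in the v6 table, with 9.742, 9.867 and 9.997 in replicates 1, 3 and 4, it was -0.354 and did not (adjusted p = 0.196). Since the replicate numbers of SHR/OlaIpcv differ between the tables, these need not be the same animals. Over libraries, with batch as a covariate, it was -0.522 ± 0.123 (SE) and passed (limma, adjusted p = 0.00126), but this fit counts 18 libraries of the same 2 SHR/OlaIpcv animals and its n exceeds the animals. Without replicate 1 of SHR/OlaIpcv the difference was -0.119, and without replicate 4 it was -0.476.

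**Figure D3:**
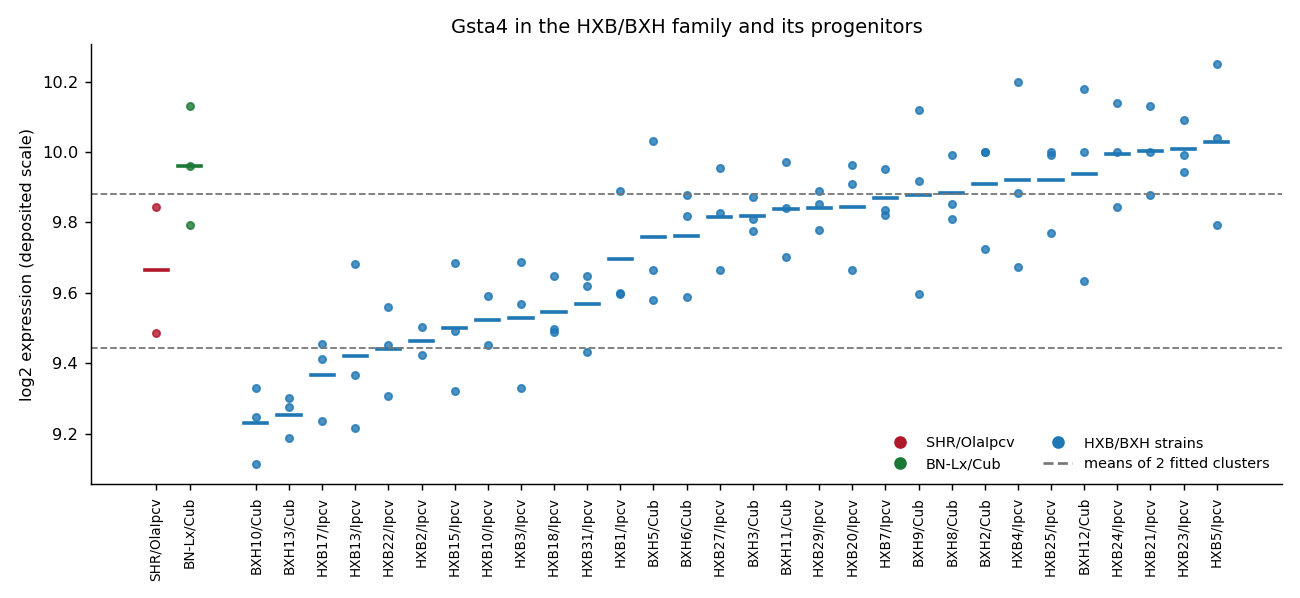
Log2 expression of Gsta4 in the animals (points) of both progenitors and of the 30 HXB/BXH strains, ordered by the strain mean (bar), with the means of the 2 fitted clusters as dashed lines. The 11 lower strains lie around 9.443 and the 19 upper strains around 9.881, BN-Lx/Cub lies with the upper strains, and the SHR/OlaIpcv animals lie at 9.486 and 9.843.

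Within HXB/BXH, some neighbours of Gsta4 on chromosome 8 were among the genes most correlated with it. Of the 10 genes whose means over the 30 strains were closest to those of Gsta4 by absolute r, 4 lay within 10 Mb of it, where 0.668% of the 6733 genes with a position on rn6 did. They were Mrap2 (r = 0.823), an accessory protein of melanocortin receptors, Cep162 (r = 0.784), a centriole protein, Elovl4 (r = 0.773), an elongase of very long fatty acids, and Rsl24d1 (r = 0.743), a ribosome biogenesis factor. Mrap2, Cep162 and Elovl4 lay 9.32, 9.42 and 5.84 Mb on one side and Rsl24d1 lay 5.7 Mb on the other. None of the 10 lay within 10 Mb in FXLE/LEXF or in the classic inbred strains. Genes within 5 Mb as a whole were little closer to Gsta4, with a median absolute r of 0.3 over 19 genes against 0.268 over 6356 genes on other chromosomes. Strains of a family share long stretches of chromosome, and these correlations are a description without a test. For Gstm4 and Gsto1 none of the 10 nearest genes in HXB/BXH lay within 10 Mb.

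Over all 69 strains, the genes most like Gsta4 were P2ry12 (r = 0.581), a microglial receptor, Atr (r = 0.564), a kinase of the DNA damage response, and Etfa (r = 0.551), an electron carrier of mitochondria, the latter pair on chromosome 8 like Gsta4. Here and below, the most like genes are those with the highest positive r among genes with a mean above the median gene, members left out. With the list of 6 microglia markers, which holds P2ry12, the r of Gsta4 was 0.00325. The most like Gstm4 were Tesc (r = 0.619), Nme1 (r = 0.589), a nucleoside diphosphate kinase, and Rpl18 (r = 0.564), a ribosomal protein. Of 100 relations of members with marker lists, 12 had an adjusted permutation p under 0.05, each with an absolute r of 0.346 or more, which 6.88% of all relations of genes with these lists reached. The strain means of Gsta4 went against those of the 6 neuron markers (r = -0.471, Spearman's rho = -0.5, permutation p = 3e-05 and 4e-05, adjusted over the 100 relations 0.0015 and 0.002), and r was -0.52 without the 2 strains farthest from the median. Within sequencing batches of 6 or more animals, r was below 0 in 15 of 15 batches, from -0.771 to -0.0672. With the neuron markers as a covariate the R2 of Gsta4 was 0.758, and 0.793 in HXB/BXH, of the variance that the markers left.

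Gsto1, the omega-class thioltransferase, varied over a narrow range, from 10.96 in COP/CrCrl to 11.35 in WAG/RijCrl, with a within-strain SD of 0.0765. The COP/CrCrl animals had 10.93 and 10.98 and the WAG/RijCrl animals 11.3, 11.33 and 11.41. These strains did not overlap, but they were picked as the ends of the order, so that this is no test. Against the mean of all other strains, COP/CrCrl was lower, with a difference of -0.202 ± 0.0567 (SE, limma, adjusted p = 0.0436, 0.869-fold), and WAG/RijCrl was higher by 0.199 ± 0.0464 (adjusted p = 0.00678, 1.15-fold). In the v5 table Gsto1 had no strain effect past the threshold (R2 0.444, adjusted p = 0.0592). Its strain means went against those of 6 astrocyte markers (r = -0.47, rho = -0.433, permutation p = 6e-05 and 2.9e-04, adjusted 0.0015 and 0.00725, r = -0.429 without the 2 farthest strains), with r below 0 in 13 of 15 batches, and R2 was 0.556 with these markers as a covariate (adjusted p = 0.00125). The genes most like it were Ica1 (r = 0.675), Psmb7 (r = 0.668), a proteasome subunit, and Nedd8 (r = 0.665), a ubiquitin-like protein.

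Gstm2, a mu-class enzyme, had strain means from 7.74 in LEXF10B/Stm to 8.439 in LEW/Crl, a 1.62-fold range, with a within-strain SD of 0.22. This range leaves out strains with 1 animal, of which LE/Stm (8.72), LEXF2B/Stm (8.464) and LEXF9/Stm (7.732) lay outside it. The LEW/Crl animals ran from 8.368 to 8.532 and the LEXF10B/Stm animals from 7.531 to 7.913. No single strain passed against the others (limma, 9 strains at an unadjusted p under 0.05, smallest adjusted p = 0.166). The strain means of Gstm2 rose with those of 5 markers of meninges and fibroblasts, Col1a1, Col1a2, Dcn, Lum and Igf2 (r = 0.631, rho = 0.622, permutation p = 1e-05 for both, the smallest that 100000 permutations can give, adjusted 0.001, r = 0.575 without the 2 farthest strains). The relation was positive in 15 of 15 batches, with r from 0.176 to 0.912, and in each panel, with 0.542 in HXB/BXH, 0.612 in FXLE/LEXF and 0.709 in the classic inbred strains. Within strains, over 192 animals, r was 0.477. With the meningeal markers as a covariate Gstm2 lost the call of a strain effect over all strains (R2 0.427, adjusted p = 0.126) and kept it in the classic inbred strains (R2 0.57, adjusted p = 0.0314). Gstm2 also rose with 6 choroid plexus markers (r = 0.438, rho = 0.443, permutation p = 2.1e-04 and 1.8e-04, adjusted 0.0035 and 0.006, r = 0.416 without the 2 farthest strains), with r of 0.661 in the classic inbred strains and above 0 in 13 of 15 batches. Over animals, the mean of the meningeal markers ran from 9.674 to 10.81, with a median of 10.14, and that of the choroid plexus markers from 8.463 to 9.863, with a median of 9.153.

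**Figure D4:**
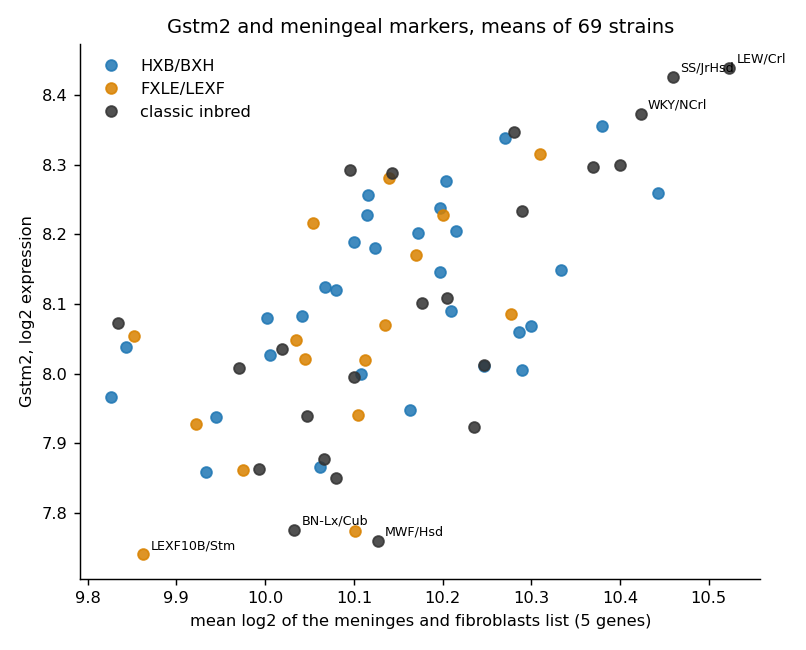
Strain means of Gstm2 (vertical axis, log2 expression) against the mean of 5 markers of meninges and fibroblasts (horizontal axis, log2) for 69 strains, coloured by panel. The means rise together in each panel (r = 0.631 over all strains), with LEW/Crl (8.439) highest on the vertical axis.

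Gstm1, the mu-class gene studied in the stroke-prone rat, had strain means from 11.86 in LEXF5/Stm to 12.29 in WKY/NCrl, a 1.35-fold range. This range leaves out strains with 1 animal, of which LE/Stm (12.37), BUF/MnaMcwi (12.34) and FXLE13/Stm (11.82) lay outside it. No strain passed against the others (limma, 10 strains at an unadjusted p under 0.05, smallest adjusted p = 0.14). Gstp1, Gstm5, Gstt1, Gstk1 and Gstm3 likewise had no strain past the threshold, with 10, 5, 3, 2 and 1 strains at an unadjusted p under 0.05. Their strain means spanned 1.43-fold for Gstp1, from SHR/OlaIpcv and BXH13/Cub, both at 11.33, to HXB2/Ipcv, and 1.58-fold for Gstm5, from LEXF5/Stm to WKY/NCrl. The span was 1.5-fold for Gstt1, from LEXF6B/Stm to HXB2/Ipcv. It was 1.28-fold for Gstk1, from LEXF5/Stm to FXLE20/Stm, and 1.22-fold for Gstm3, from LEW/Crl to LEXF1C/Stm. These spans leave out strains with 1 animal. Of those strains, LE/Stm was higher for Gstt1 (7.182), Gstk1 (9.065) and Gstm3 (1.272). BUF/MnaMcwi was higher for Gstm5 (11.25), and FXLE13/Stm was lower for Gstp1 (11.25).

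The stroke-prone strain was compared with its hypertensive relative and with the normotensive strain of shared history, with Gstm1 as the named case. Gstm1 was 12.1 and 12.22 in the SHRSP/A3NCrl animals, 12.07 and 12.08 in the SHR/OlaIpcv animals and 12.27, 12.27 and 12.32 in the WKY/NCrl animals. Both SHRSP/A3NCrl animals lay between the other strains, which did not overlap. SHRSP/A3NCrl differed from SHR/OlaIpcv by 0.0876 (95% interval -0.168 to 0.343, limma, adjusted p = 1), a ratio of 1.06 with an interval of 0.89 to 1.27. The same difference was 0.203 in the v5 table (adjusted p = 0.368), 0.101 in the v6 table (adjusted p = 1) and 0.234 ± 0.122 (SE) over libraries with batch as a covariate (adjusted p = 0.205), and none of these passed in limma. It differed from WKY/NCrl by -0.126 (-0.359 to 0.107, adjusted p = 0.899), a ratio of 0.916 with an interval of 0.78 to 1.08. Intervals of this width do not show that Gstm1 is alike in these strains.

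None of the 10 members passed in SHRSP/A3NCrl minus SHR/OlaIpcv (0.125% of all genes did, and 0 members and 2.97% of all genes had an unadjusted p under 0.05), and the differences ran from -0.0145 for Gsto1 to 0.222 for Gstt1. In v5, which had no row for Gstm2 or Gstm3, 1 member passed here, Gsta4 (0.42, limma, adjusted p = 0.0439). None passed in SHRSP/A3NCrl minus WKY/NCrl (0.805% of all genes did), where 1 member, Gstm4 (-0.275), and 7.42% of all genes had an unadjusted p under 0.05. None passed in SHR/OlaIpcv minus WKY/NCrl (0.825% of all genes did), where 5 members had an unadjusted p under 0.05, each with a lower mean in SHR/OlaIpcv, against 8.49% of all genes. These were Gstm5 (-0.39), Gstt1 (-0.418), Gsta4 (-0.313), Gstp1 (-0.29) and Gstm4 (-0.285), with adjusted p from 0.346 to 0.581. These comparisons share animals and are not independent. Over animals, SHR/OlaIpcv could not be compared with either strain with batch as a covariate, whereas SHRSP/A3NCrl minus WKY/NCrl could, with 0 members and 174 of all genes called (Gstm1 -0.115, limma, adjusted p = 0.909). When the 18 SHR/OlaIpcv libraries were used as the unit, with batch as a covariate and an estimated correlation of 0.204 between libraries of 1 animal, 7 members passed in SHR/OlaIpcv minus WKY/NCrl, Gstm1 among them (-0.342, limma, adjusted p = 0.0154), and 0 in SHRSP/A3NCrl minus SHR/OlaIpcv, in a fit that called 4363 and 619 of all genes and in which SHR/OlaIpcv still rests on 2 animals.

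**Figure D5:**
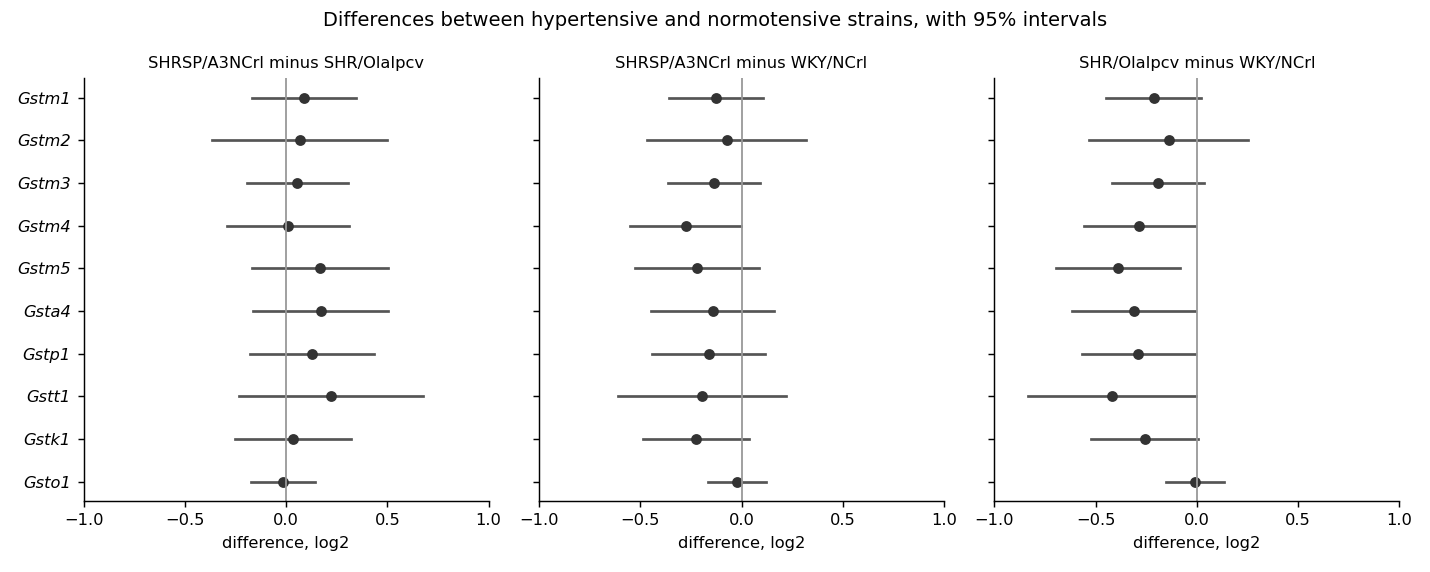
Differences in log2 expression (points) of the 10 members for SHRSP/A3NCrl (2 animals), SHR/OlaIpcv (2 animals) and WKY/NCrl (3 animals), with 95% intervals (lines); a value above 0 means a higher level in the strain named first. Gstm1 lies at 0.0876 in SHRSP/A3NCrl minus SHR/OlaIpcv, and 9 of the 10 points in SHR/OlaIpcv minus WKY/NCrl lie to the left of -0.1.

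The progenitors of both families were compared in the same fit. In SHR/OlaIpcv minus BN-Lx/Cub no member passed, where 4.51% of all genes did, and Gstm2 alone had an unadjusted p under 0.05 (0.458, adjusted p = 0.175), as did 19.2% of all genes. The Gstm2 values of BN-Lx/Cub were 7.767, 7.777 and 7.781 and those of SHR/OlaIpcv 8.075 and 8.391, and 24 of the 30 HXB/BXH strains had a mean between those of the progenitors. In F344/Stm minus LE/Stm the differences ran from -0.544 for Gstt1 to -0.00841 for Gsto1. The single LE/Stm animal, assumed to vary like the others, is the one with raised liver genes named above, so that the absence of a call among members, where 0.796% of all genes were called, says little. In the v5 table every strain had 2 or more animals. There the differences of Gstm1, Gstm4, Gstm5, Gsto1 and Gstp1 were positive, and again no member was called.

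Transcripts were tested in a separate table of 45918 RefSeq transcripts, of which 13.4% passed. Gsta4 was carried by 1 transcript, NM_001106840, with R2 0.731 (adjusted p = 2.85e-12). Of 3 transcripts of Gstm4, NM_001024304 (R2 0.597, adjusted p = 3.73e-05) and XM_039102935 (R2 0.516, adjusted p = 0.00792) passed and XM_039102940 (R2 0.453, adjusted p = 0.121) did not. The first was highest in BDIX/NemOdaMcwi (9.212) and the second in SR/JrHsd (7.176). Of 2 transcripts of Gsto1, NM_001007602 passed (R2 0.586, adjusted p = 0.0034). No transcript of Gstm1, Gstm2, Gstm3, Gstm5, Gstp1, Gstt1 or Gstk1 passed, and the lowest adjusted p among them was that of XM_017590627 of Gstm2 (R2 0.481, adjusted p = 0.0512).

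Strain means were also compared between members. Of the 45 pairs of members, 12 had an adjusted permutation p under 0.05, each with an absolute r of 0.326 or more, which 19.0% of all pairs of genes reached, so that the count is not far from the background. In these 12 pairs r was positive, and 9.75% of all pairs of genes had a positive r of this size. The closest pair was Gstm5 and Gstk1 (r = 0.76, rho = 0.724, permutation p = 1e-05 for both, adjusted 1.5e-04, r = 0.707 without the 2 farthest strains), with r above 0 in 15 of 15 batches and 0.791 within strains. Gstp1 followed with Gstt1 (r = 0.574, rho = 0.564) and Gstk1 (r = 0.548, rho = 0.561), each with a permutation p of 1e-05 (adjusted 1.5e-04) and r above 0 in 14 of 15 batches. Gsta4 and Gstm4, which had the highest R2, were not in step with each other (r = -0.132). Strains of a family share alleles, so that strain means are not fully independent. Both members of the closest pair went with several marker lists, and the part of these in the pair was not tested. Gstk1 rose with the oligodendrocyte markers (r = 0.448, rho = 0.348, adjusted permutation p = 0.0032 and 0.0343) and the ependyma markers (r = 0.417, rho = 0.418, adjusted 0.00571 and 0.008). Gstm5 went against the neuron markers (r = -0.473, rho = -0.376, adjusted permutation p = 0.0015 and 0.0257). It rose with the microglia markers (r = 0.4, rho = 0.367, adjusted 0.00787 and 0.0257), the ependyma markers (r = 0.365, rho = 0.365, adjusted 0.0182 and 0.0257) and, by r alone, the oligodendrocyte markers (r = 0.38, rho = 0.302, adjusted 0.0144 and 0.0705). The sign within batches was that of the pooled r in 13 or 14 of 15 batches for each of these 6 relations. By r alone, Gstp1 rose with the oligodendrocyte markers (r = 0.373, rho = 0.312, adjusted 0.0151 and 0.0705) and Gstt1 with the ependyma markers (r = 0.346, rho = 0.33, adjusted 0.031 and 0.0578). By rho alone, Gstk1 rose with the astrocyte markers (r = 0.32, rho = 0.347, adjusted 0.0591 and 0.0343).

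Other genes of the pathway were read from 2 lists. Of 17 other glutathione transferases in the table, 10 had a strain effect and the median R2 was 0.476, and of 41 other glutathione genes, covering synthesis, peroxidases, glutaredoxins, exporters and Nrf2 targets, 21 had one and the median R2 was 0.46, against the same 36.8% and 0.434 over all genes. The row of Gstm3 is also among the 17. The highest R2 of the second list belonged to Srxn1 (0.655), which reduces oxidized peroxiredoxin, Gpx2 (0.619) and Gpx3 (0.597), both glutathione peroxidases. Nfe2l2, which encodes Nrf2, had R2 0.485 (adjusted p = 0.0171). Among the other transferases, 3 were singled out after their values had been seen. Hpgds, a prostaglandin D synthase of the sigma class, had R2 0.802, and it was lower in SHR/OlaIpcv than in WKY/NCrl by a difference of -1.45 ± 0.244 (SE, limma, adjusted p = 2.27e-05) and than in BN-Lx/Cub by -1.96 ± 0.244 (adjusted p = 4.57e-10). Gstt3 and Gstt4, theta-class relatives of Gstt1, passed in FXLE/LEXF (R2 0.907 and 0.848), where no member of the main list did. Both also passed in the classic inbred strains (R2 0.802 and 0.722), and Gstt4 passed in HXB/BXH (R2 0.808). The mean of Gstt4 was low, at 3.357.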

How the data were processed

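Whole-brain total RNA libraries were compared by strain, taken from GEO's labels. The deposited log2 values came from trimmed reads (Cutadapt 1.9.1), which, for the earlier v5 table, the authors cleared of ribosomal RNA (Bowtie 2), aligned to strain-specific rn6 genomes (HISAT2), counted with RSEM, adjusted for 1 factor of unwanted variation and transformed with the regularized log of DESeq2. The submitters' processing notes name Bowtie2 2.3.4.3, HISAT2 2.1.0 and RSEM 1.3.1 for 193 samples and Bowtie2 2.4.5, HISAT2 2.2.1 and RSEM 1.3.3 for 39, and the build and steps of the later v6 and v7.1 tables are not given in the sources used here. The regularized log shrinks differences of low genes.

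The 214 libraries of the v7.1 RefSeq gene table were averaged to 197 animals (libraries with the same strain and replicate number), and 73 spike-ins were left out. A single column of v5, 1 in all, was not used. Batch was the number in the column names. For some samples, among them animals of DA/OlaHsd, it differs from the batch in the GEO title. The sources do not say that animals of a strain came from separate litters, so that p-values measure the spread between these animals. All values were analysed as deposited, without a pseudocount. The main tests had no filter of genes. The genes most like a member were sought by the highest positive r, among genes other than members with a mean above the median gene. Strain effects, strains and pairs of strains were tested with limma 3.58.1 in R 4.3.3, with Benjamini-Hochberg adjustment over all genes at an FDR of 5%. Correlations had 100000 two-sided permutations. Clusters were fitted with mclust 6.1.1. Of the fits, the strain F-test without covariates and SHRSP/A3NCrl minus SHR/OlaIpcv were tried on simulated data.

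Members and lists were chosen with earlier results of these data known. Named genes were all members, the 3 other glutathione genes with the highest R2 (none passed in SHRSP/A3NCrl minus SHR/OlaIpcv), and for members with R2 over 0.5 the 3 genes with the highest correlation. Outside this rule, Nfe2l2, Hpgds, Gstt3, Gstt4, the chromosome 8 neighbours of Gsta4 and the genes closest to Gstm2 were named after their values had been seen. Same-numbered animals were not paired (lowest correlation of their deviations -0.721).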

Additional observations from a re-analysis of the deposited data

How the results depend on the processing

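The alternatives covered batch, table version, replicate number and marker lists, but batch was not covered for each strain against the others. Those leaving out animals that stood apart or had raised liver genes, those with marker lists and those over libraries were chosen after seeing the data. So were leaving out a replicate number in the classic inbred strains and the replicate block in SHR/OlaIpcv minus WKY/NCrl. Of the single-gene values, 705 kept their direction and their side of the threshold, 23 gained a call, 19 lost one and 37 differences without a call changed sign. The cause of these changes was not tested. Depth is unknown, and SHR/OlaIpcv and SHRSP/A3NCrl rest on 2 animals each. F344/NCrl replicate 2 and SHRSP/A3NCrl replicate 1 are not in the table used. With batch as a covariate, SHR/OlaIpcv could not be compared with SHRSP/A3NCrl, WKY/NCrl or BN-Lx/Cub over animals.

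Members with a strain effect numbered 5, and 2 to 5 when a replicate number was left out (HXB/BXH 1 in each case, FXLE/LEXF 0 to 1, with Gstt1 at R2 0.844 without replicate 3, classic inbred 2 to 3). In v6, 4 members had a strain effect, and with batch as a covariate 6 did. All genes with one numbered 11959 with batch as a covariate, 3636 when only genes above the median were tested and 3116 to 6122 without a replicate number. The same counts were 6694, 1536 and 1710 to 1902 in HXB/BXH. In FXLE/LEXF they were 426 above the median and 99 to 1781 without a replicate number. In the classic inbred strains they were 1268 to 2223 without a replicate number and 5892 with the neuron markers. Of 6 fits of members with more than 1 cluster, 3 met the stricter rule.

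With libraries as the unit, members called were 2 in SHR/OlaIpcv minus BN-Lx/Cub and 7 in SHR/OlaIpcv minus WKY/NCrl, and genes called were 3450, 4363 and, in SHRSP/A3NCrl minus SHR/OlaIpcv, 619. Gstm2 and Gstm3 had no row in v5 and could not be called there. In v5, 1 member was called in SHR/OlaIpcv minus BN-Lx/Cub and 1 in SHRSP/A3NCrl minus SHR/OlaIpcv (Gsta4, 0.42), and genes called were 1891 in the latter and 667 in F344/Stm minus LE/Stm. In v6 they were 408 in SHR/OlaIpcv minus BN-Lx/Cub and 46 in SHRSP/A3NCrl minus SHR/OlaIpcv. Without 1 animal, genes called were 202 to 1777 in SHR/OlaIpcv minus BN-Lx/Cub, 37 to 121 in SHR/OlaIpcv minus WKY/NCrl, 8 to 11 in SHRSP/A3NCrl minus SHR/OlaIpcv and 64 to 119 in SHRSP/A3NCrl minus WKY/NCrl, and members called were 0.

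Same-numbered animals were little closer to each other than others (median correlation of deviations 0.0121, against -0.00721 for different numbers). In HXB/BXH the replicate number went in part with batch, so that leaving out a number also changed the batches. With the replicate block, 5 members had a strain effect, and genes called were 410 in SHR/OlaIpcv minus BN-Lx/Cub, 98 in SHR/OlaIpcv minus WKY/NCrl and 17 in SHRSP/A3NCrl minus SHR/OlaIpcv. Gsto1 in SHR/OlaIpcv minus WKY/NCrl was 0.00438 with the block.

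The other changes of sign came from table versions, libraries or 1 animal left out, the last given as ranges. In F344/Stm minus LE/Stm, v5 gave 0.148 for Gstm1, 0.011 for Gstm4, 0.06 for Gstm5, 0.174 for Gsto1 and 0.0565 for Gstp1, and leaving out 1 animal gave -0.141 to 0.0365 for Gstm5 and -0.0673 to 0.0438 for Gsto1. In SHR/OlaIpcv minus BN-Lx/Cub, Gstm1 was -0.0528 in v5 and -0.0272 in v6, libraries gave -0.0551 for Gstm3l, 0.0314 for Gstm4, 0.0513 for Gstp1 and 0.116 for Gstt1, and leaving out 1 animal gave -0.0135 to 0.0605 for Gstm3l and -0.0809 to 0.0231 for Gstt1. In SHR/OlaIpcv minus WKY/NCrl, Gsto1 was 0.0619 over libraries, and leaving out 1 animal gave -0.298 to 0.0178 for Gstm2 and -0.0688 to 0.0602 for Gsto1. In SHRSP/A3NCrl minus SHR/OlaIpcv, v6 gave -0.0122 for Gstk1 and -0.0124 for Gstm4, and leaving out 1 animal gave -0.00776 to 0.35 for Gsta4, -0.0296 to 0.0979 for Gstk1, -0.205 to 0.338 for Gstm2, -0.0928 to 0.204 for Gstm3l, -0.0474 to 0.0665 for Gstm4, -0.0131 to 0.35 for Gstm5, -0.094 to 0.065 for Gsto1 and -0.0286 to 0.472 for Gstt1. In SHRSP/A3NCrl minus WKY/NCrl it gave -0.346 to 0.198 for Gstm2, -0.284 to 0.0132 for Gstm3l, -0.102 to 0.0574 for Gsto1 and -0.447 to 0.0536 for Gstt1.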

Other observations

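In HXB/BXH, the means of Gstt1, the theta-class enzyme, ran from 6.522 to 6.933 and lay in all 30 strains above both progenitors, SHR/OlaIpcv (6.442) and BN-Lx/Cub (6.471). The within-strain SD of Gstt1 was 0.232, and this difference was not tested. Gstt1 had no strain effect in HXB/BXH (R2 0.257, limma F-test, adjusted p = 0.854). The progenitor means rest on 2 animals of SHR/OlaIpcv and 3 of BN-Lx/Cub. The lowest animals of many of these strains lay below both of these means. Among them were animals of BXH13/Cub (6.22), HXB17/Ipcv (6.253), BXH5/Cub (6.254), HXB20/Ipcv (6.261) and BXH12/Cub (6.315). Gstp1, the pi-class enzyme, lay above both progenitor means in 22 of the 30 strains and below both in 0.

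Among genes with a mean above the median gene, those closest to Gstm2 by positive r over the 69 strains were Aldh1a2 (r = 0.724), which makes retinoic acid, Igf2 (r = 0.677), one of the meningeal markers, and Aqp1 (r = 0.674), a water channel of the choroid plexus. They were looked up after the relation of Gstm2 with the meningeal markers had been seen and are given without a test.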
